A study of Capra hircus with 3 samples.

Results

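FGF7, IGF1 and IGFBP5 are 3 genes of secreted growth factor signalling that are associated with the dermal papilla of the hair follicle. They were taken by name from the 16739 genes of the table and are described here by the cells that held their transcripts, by their detection in the same cells and by stage. The cells came from back skin of fetuses of the Northern Shaanxi White Cashmere goat breed (Capra hircus), sequenced by the 10x droplet method that reads transcript 3′ ends, at embryonic day 60 (E60, follicle induction), E90 (organogenesis) and E120 (cytodifferentiation). All groups were of the same breed and body site, and the labels name no treatment and no genotype beyond the breed. Each stage was 1 library, with cells of at least 2 fetuses pooled before barcoding. Cells of E60 and E90 came from whole skin digested with collagenase IV, whereas those of E120 came from follicles dissected out of collagenase-treated skin and dissociated with TrypLE, so wherever E120 is compared, stage and preparation cannot be told apart.

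FGF7, also called keratinocyte growth factor, is a ligand made by mesenchymal cells that acts on the epithelial splice form of FGFR2, and in skin it reaches keratinocytes from the dermis. IGF1 is the ligand of the receptor IGF1R and acts on many cell types, hair matrix cells among them. IGFBP5 binds IGF1 and IGF2 outside the cell and thereby alters how much of them reaches the receptor, and the protease PAPPA2 cleaves it. The dermal papilla is the cluster of mesenchymal cells at the base of the follicle. It forms from the dermal condensate and signals to the epithelium that surrounds it.

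The 3 libraries held 6849, 6931 and 6896 cells with a median of 8579, 3714 and 13064 unique molecular identifiers (UMIs) per cell at E60, E90 and E120. The table held 20676 cells, against 19705 in the design text. Levels are given as CPM, the UMIs of a gene per 1000000 UMIs of all genes, summed over the cells of a class in 1 library. With 1 library per stage no test was possible, and all intervals are exact 95% intervals that cover counting error only. Cells were clustered within each library with the 3 genes and the other FGF and IGF pathway genes left out, and clusters were named from fixed marker genes. Between 9 and 13 cell barcodes were shared by any pair of libraries.

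Dermal-like cells, named from a joint list of dermal, fibroblast and papilla marker genes, numbered 5568 at E60, 536 at E90 and 222 at E120. Among them 1 cluster per library carried dermal condensate or papilla markers among its leading genes and is called papilla-like. These clusters held 51 cells at E60, 273 at E90 and 158 at E120, which was 0.745%, 3.94% and 2.29% of all cells. By the rule used for naming, no collagen counted as a marker found in the E60 cluster. COL1A2 was the only collagen that did in the E120 cluster. Apart from pathway genes, the E60 cluster was led by SMOC1, BMP7, BMP4, PTCH1, SOX18 and ALPL, the E90 cluster by BMP3, SPON1, SPARCL1, APOD and SOX18, and the E120 cluster by RSPO2, RSPO3, APOD, ENPEP and EDN3. The 15 papilla markers summed to 1590, 3780 and 7994 CPM in these cells, against 223, 708 and 4810 CPM in the other dermal-like cells and 416, 641 and 194 CPM outside the dermal-like cells. The clusters were named from these markers, so the sums are no separate evidence for the name. At E60, E90 and E120, 10, 13 and 9 of the 15 were higher than in the other dermal-like cells. SOX18 alone gave 862 and 2365 CPM at E60 and E90. At E120 WIF1 was 969 CPM against 2497 CPM in the other dermal-like cells, and TBX18 19.4 against 79.3 CPM. RSPO2, APOD and SFRP1 were at 0 in the E60 cluster, RSPO2 was at 0 in the E90 cluster and CORIN was at 0 in the E120 cluster. The 3 clusters were therefore marked by different genes of the list, and the E60 cluster had the most of them at 0. Of 34 epithelial markers, 30, 6 and 6 were at 0 in the papilla-like cells of E60, E90 and E120, and the 34 summed to 259, 2809 and 4542 CPM there, against 15687 and 28471 CPM in the epithelial-like cells of E90 and E120. The 12 endothelial markers summed to 10.5, 22.8 and 3.5 CPM, the 7 mural markers to 10.5, 279 and 81.0 CPM and the 9 leukocyte markers to 7.9, 5.5 and 62.5 CPM. The part of these markers in the levels below was not tested.

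FGF7 was 0 CPM in the papilla-like cells of E60, 17.3 CPM at E90 (interval 11.2 to 25.5) and 2364 CPM at E120 (interval 2275 to 2455). It was thus listed at 0 in the E60 cluster, low in the E90 cluster and high in the E120 cluster. At E60 no UMI was found in 51 cells, and a limit of 3 counts allows 5.88% of them to hold one (exact interval up to 6.98%) and a level of 7.86 CPM. At E90 there were 25 UMIs in 20 of 273 cells, and at E120 there were 2683 UMIs in 157 of 158 cells. The level at E120 was 137-fold that at E90 (interval 92.5 to 212). Taken against 3 counts it was 301-fold that at E60, and the exact lower limit was 244-fold. From E60 to E90 the ratio against 3 counts was only 2.20-fold, with an exact lower limit of 1.66-fold. With cells classed by their own marker counts instead of clusters, the log2 ratio of CPM + 1 for that step was 0.37 in place of 4.19.

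In the other dermal-like cells FGF7 was 29, 14.9 and 326 CPM at E60, E90 and E120. The difference between E90 and E120 was 21.9-fold there (interval 14.3 to 34.7), and that between E60 and E90 was 1.95-fold in the opposite direction (interval 1.33 to 2.97). At E120 these other cells were 64 cells of 1 cluster led by COL1A2, COL1A1, COL11A1, ACTG2 and ACTA2. Its 7 mural markers summed to 3023 CPM, against 81.0 CPM in the papilla-like cells. Within the E120 library, FGF7 was 7.26-fold higher in the papilla-like cells than in that cluster (interval 6.02 to 8.83). At E90 the ratio between papilla-like and other dermal-like cells was 1.16 (interval 0.647 to 2.08), a difference not detectable at this depth.

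IGF1 followed another course. In the papilla-like cells it was 265 CPM at E60 (interval 215 to 321), 767 CPM at E90 (interval 722 to 813) and 317 CPM at E120 (interval 285 to 352). The highest of the 3 values was thus that of E90, 2.90-fold above E60 (interval 2.36 to 3.59) and 2.42-fold above E120 (interval 2.14 to 2.73). The E120 value was 1.20-fold that of E60, with an interval of 0.959 to 1.51. The E60 value depended on how cells were classed: with each cell classed by its own marker counts, the log2 ratio of CPM + 1 was 3.35 from E60 to E90, in place of 1.53, and −1.01 from E90 to E120, in place of −1.27. In the other dermal-like cells IGF1 was 60.7, 296 and 365 CPM, so there the E120 value was not below that of E90. Papilla-like cells were 4.36-fold above the other dermal-like cells at E60 (interval 3.54 to 5.32) and 2.59-fold above them at E90 (interval 2.33 to 2.88). At E120 that ratio was 0.868 (interval 0.708 to 1.07).

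IGFBP5 was lowest at E90. In the papilla-like cells it was 351 CPM at E60 (interval 294 to 416), 60.8 CPM at E90 (interval 48.7 to 74.9) and 1984 CPM at E120 (interval 1903 to 2068). The E90 value was 5.77-fold below that of E60 (interval 4.38 to 7.64) and 32.6-fold below that of E120 (interval 26.4 to 40.9). From E60 to E90 the log2 ratio of CPM + 1 was −2.51, and it was −3.72 with each cell classed by its own marker counts and −3.32 in cells with 1000 or more genes and no more than 10% mitochondrial counts. The other dermal-like cells gave 458, 35.2 and 235 CPM, with the same lowest stage. Papilla-like cells stood 8.44-fold above the other dermal-like cells at E120 (interval 6.78 to 10.6) and 1.73-fold above them at E90 (interval 1.24 to 2.42). At E60 the ratio was below 1, at 0.767 (interval 0.642 to 0.909).

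**Figure D1:**
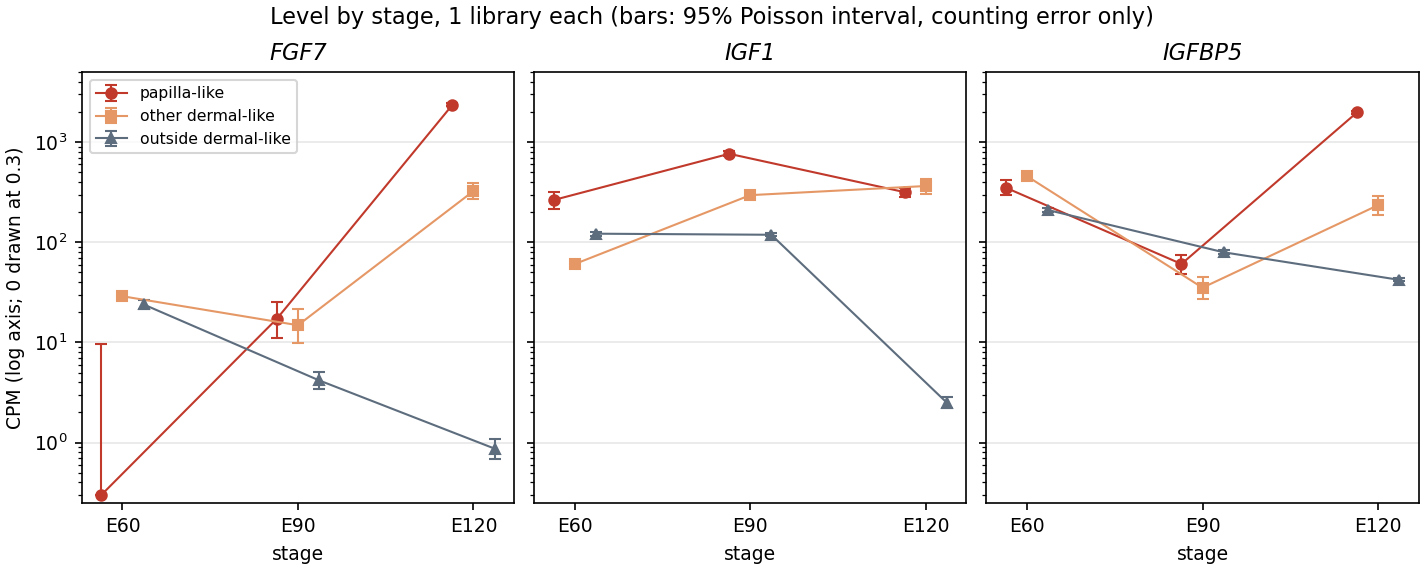
Level of FGF7, IGF1 and IGFBP5 (CPM, log axis, with 0 drawn at the foot) at E60, E90 and E120 in papilla-like, other dermal-like and all remaining cells, 1 library per stage, with bars for the exact 95% Poisson interval. In papilla-like cells FGF7 and IGFBP5 reach 2364 and 1984 CPM at E120, whereas IGF1 is highest at E90, at 767 CPM, and lines only join points of 1 class.

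All dermal-like cells together gave FGF7 levels of 28.7, 15.9 and 1880 CPM, IGF1 levels of 62.2, 505 and 329 CPM and IGFBP5 levels of 457, 46.6 and 1569 CPM. Between E90 and E120 the log2 ratio of CPM + 1 was 6.80 for FGF7, −0.62 for IGF1 and 5.04 for IGFBP5. With cells classed by their own marker counts these became 4.97, −2.41 and 2.79. All 3 kept their sign but moved by over 1.5 on the log2 scale, beyond counting error. Summed over whole libraries, FGF7 was 27.8, 5.45 and 30.8 CPM, and its E120 value was 1.11-fold that of E60 (interval 1.05 to 1.18). The whole-library levels of IGF1 were 74.3, 161 and 7.70 CPM and those of IGFBP5 were 407, 76.0 and 66.5 CPM. Against E90, the whole-library level of FGF7 at E120 was 5.65-fold higher (interval 4.83 to 6.66), with dermal-like cells at 222 of 6896 cells.

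The source of each transcript within a library differed by gene and stage. At E120 the papilla-like cells, 2.29% of the cells with 1.22% of the UMIs, held 93.2% of all FGF7 UMIs (interval 92.2 to 94.1), 50.1% of the IGF1 UMIs (interval 46.4 to 53.8) and 36.2% of the IGFBP5 UMIs (interval 35.0 to 37.4). The second E120 dermal-like cluster held 4.0% of the FGF7 UMIs and 17.9% of the IGF1 UMIs. Endothelial-like cells held 28.1% of the E120 IGF1 UMIs. Epithelial-like cells held 43.7% of the E120 IGFBP5 UMIs, more than the papilla-like cells, and unnamed clusters held 15.4%.

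At E60 dermal-like cells held 82.6% of the FGF7 UMIs, 66.8% of the IGF1 UMIs and 89.6% of the IGFBP5 UMIs, with 79.8% of all UMIs. At that stage FGF7 was 1.20-fold higher inside than outside them (interval 1.06 to 1.36), at 28.7 CPM and 24.0 CPM. The cells outside included unnamed clusters whose closest class was dermal, at 45.5 CPM with 10.5% of the FGF7 UMIs. They also included tendon- or cartilage-like cells, at 32.6 CPM with 4.81%. In the remaining classes FGF7 lay between 1.69 CPM (leukocyte-like) and 20.5 CPM (erythroid-like). The IGF1 share depended on how cells were classed. It was 27.2% with cells classed by their own marker counts and 39.2% with the libraries clustered together. Tendon- or cartilage-like cells held 14.6% of the E60 IGF1 UMIs, endothelial-like cells 8.72% and leukocyte-like cells 5.96%. At E90 dermal-like cells held 31.5% of the FGF7 UMIs, 33.9% of the IGF1 UMIs and 6.60% of the IGFBP5 UMIs, with 10.8% of all UMIs. Epithelial-like cells of E90 held 18.8%, 19.7% and 47.0% of them, and unnamed clusters held 41.2%, 38.8% and 37.4%. These 2 classes had 37.1% and 42.2% of all UMIs of the library. Under a filter that kept cells with 1000 or more genes and no more than 10% mitochondrial counts, 2756 of 6931 at E90, the dermal-like shares at E90 were 51.6%, 55.0% and 10.2%.

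**Figure D2:**
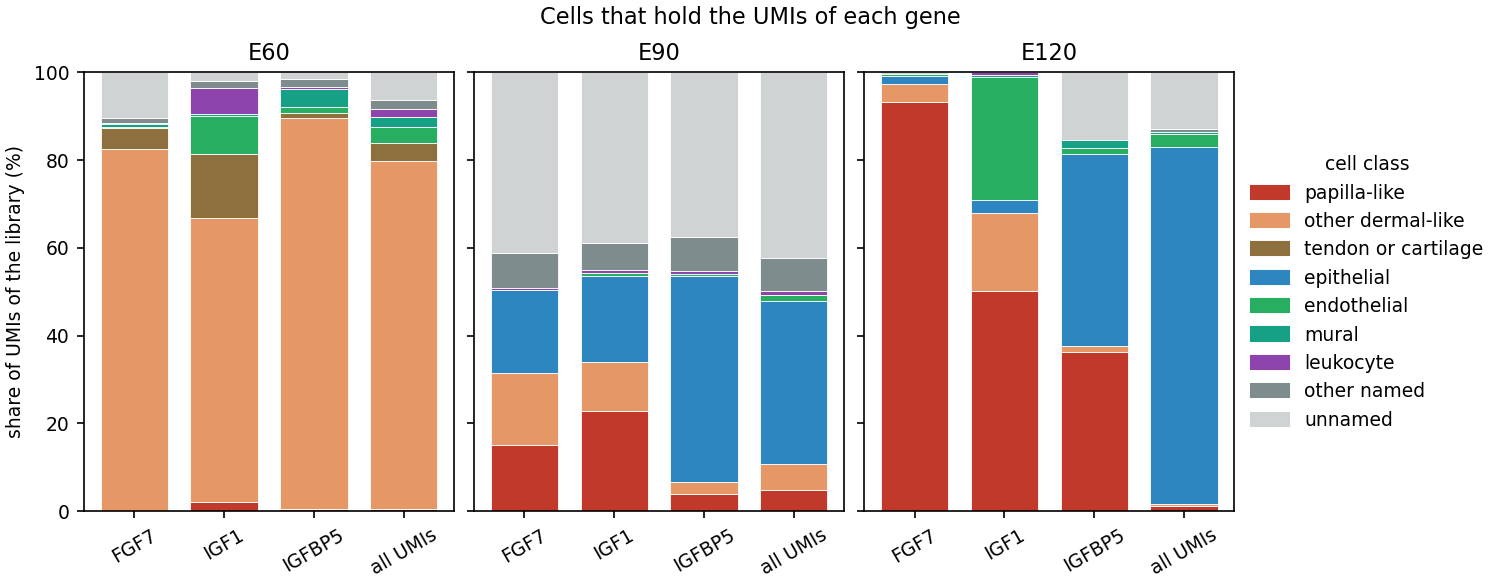
Share of UMIs in percent (stacked bars) held by each cell class, for FGF7, IGF1, IGFBP5 and all UMIs, with 1 panel for each of the libraries E60, E90 and E120. At E120 the papilla-like segment is 93.2% for FGF7, 50.1% for IGF1 and 36.2% for IGFBP5, against 1.22% of all UMIs.

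The dermal-like cells of E60 were uneven in all 3 genes. In the cluster whose leading genes included SEMA3C, SMOC2, MFAP5 and DLK1 (cluster 4, 506 cells) FGF7 was 106 CPM, IGF1 331 CPM and IGFBP5 42.7 CPM. In the cluster led by ISM1, DKK1 and CXCL14 (cluster 3, 635 cells) FGF7 was 1.0 CPM, IGF1 24.0 CPM and IGFBP5 1272 CPM. Between cluster 4 and cluster 3, FGF7 differed 104-fold (interval 44.1 to 321), IGF1 13.8-fold (interval 11.4 to 16.8) and IGFBP5 29.8-fold in the opposite direction (interval 25.6 to 34.8). Both clusters came from the same library, of 1 stage and preparation. Among the 12 dermal-like clusters besides the papilla-like one, cluster 4 had the highest FGF7 and the lowest IGFBP5. Cluster 3 had the lowest FGF7 and the highest IGFBP5, so these ratios are between extremes.

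Clusters with these 2 profiles were pooled after their values had been seen, as a description only. Clusters 4, 10 and 17 were 845 cells, 12.3% of the library, with fibroblast genes such as MFAP5, DLK1, MGP and ASPN among the leading genes of single clusters. They held 37.0% of the FGF7 UMIs, 57.5% of the IGF1 UMIs and 4.41% of the IGFBP5 UMIs of E60. Clusters 3, 9 and 12 were 1149 cells, 16.8% of the library, led by ISM1 and DKK1 or by cell cycle genes. They held 0.664% of the FGF7 UMIs, 4.62% of the IGF1 UMIs and 35.0% of the IGFBP5 UMIs. The pooled IGF1 level was 384 CPM in the first set and 22.2 CPM in the other, and the pooled IGFBP5 level was 161 and 922 CPM. Single clusters of the 2 sets overlapped in IGFBP5, at 416 CPM in cluster 12 and 426 CPM in cluster 17. IGFBP5 was also high, at 872 CPM, in cluster 2, which belongs to neither set and held 22.5% of its UMIs.

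Within clusters 4, 10 and 17 the levels of the 3 genes did not follow each other. IGF1 was 565 CPM in cluster 10, led by CCL11, MGP and SFRP1, where FGF7 was 80.3 CPM and IGFBP5 261 CPM. In cluster 17, led by CYTL1 and ASPN, FGF7 was 60.9 CPM, IGF1 247 CPM and IGFBP5 426 CPM. The largest dermal-like cluster (cluster 1, 1384 cells, led by TMEM35A) had FGF7 at 30.1 CPM but IGF1 at 1.7 CPM, 327-fold below cluster 10 (interval 213 to 530). Across the 13 dermal-like clusters of E60, Pearson's r of log2(CPM + 1) was 0.12 between FGF7 and IGF1, −0.60 between FGF7 and IGFBP5 and −0.26 between IGF1 and IGFBP5. These clusters share 1 library, and the values are a description.

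**Figure D3:**
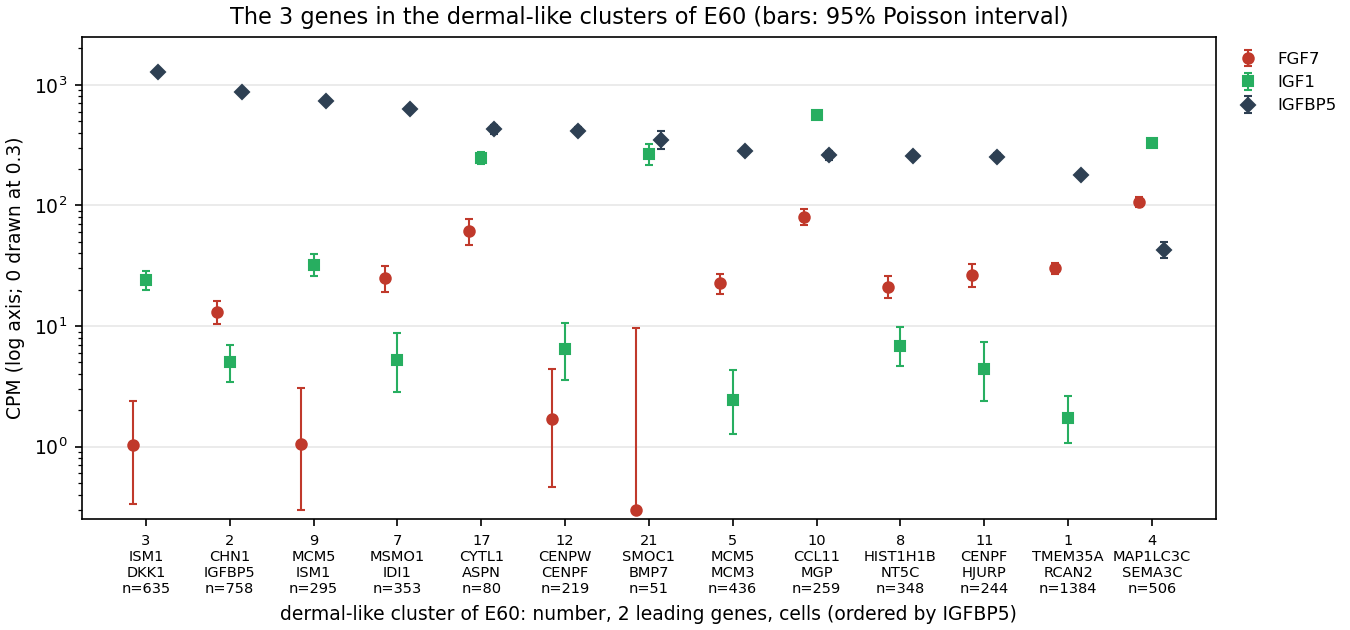
Level of FGF7, IGF1 and IGFBP5 (CPM, log axis, with 0 drawn at the foot) in each of the 13 dermal-like clusters of E60, ordered by IGFBP5, with bars for the exact 95% Poisson interval and the leading genes and cell number under each cluster. Cluster 3, at the left, has 1272 CPM of IGFBP5 and 1.0 CPM of FGF7, and cluster 4, at the right, has 42.7 and 106 CPM.

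Outside the dermal-like cells of E60, IGF1 was also high in single clusters. The lymphatic-like endothelial cluster, 23 cells, had 988 CPM, 47.5-fold above the other endothelial-like cluster at 20.8 CPM (interval 34.3 to 67.2), and it held 7.87% of the IGF1 UMIs of the library. The macrophage-like cluster had IGF1 at 406 CPM, whereas the other leukocyte-like cluster had 2.1 CPM. In the tendon- or cartilage-like cells IGF1 was 264 CPM (interval 245 to 284). IGFBP5 was 761 CPM in the mural-like cells of E60 (interval 717 to 808), above the 457 CPM of the dermal-like cells.

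At E90 IGF1 was found in every cluster. In the 18 clusters outside the dermal-like cells it lay between 14.7 and 181 CPM with a median of 110 CPM, and none was at 0. Per 100 UMIs of dermal marker genes, IGF1 had 0.703 to 6.91 UMIs in the 10 epithelial-like clusters (median 5.03), 13.6 in the papilla-like cluster and 3.25 in the other dermal-like cluster. The ratio was 5.12 in the leukocyte-like, 4.60 in the mast cell-like and 4.13 in the endothelial-like cluster. IGF1 outside the dermal-like cells of E90 thus came together with dermal marker transcripts in cells of unrelated types, and whether free RNA in the droplets was its source was not tested. In the papilla-like cells of E90 IGF1 was 8.99-fold and FGF7 6.25-fold the level of the epithelial-like cells, while IGFBP5 was 0.631 of it. The highest IGFBP5 level of E90, 223 CPM, was in an epithelial-like cluster of 272 cells led by PIK3C2G, TAC1 and SEMA3E, which held 16.7% of the IGFBP5 UMIs.

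At E120 the 3 genes differed in how far they were confined to dermal-like clusters. Among the 31 other clusters FGF7 was between 0 and 10.5 CPM, with a median of 0.600 CPM, and 9 were at 0. IGF1 was at 0 in 18 of the 31. Its highest level outside the dermal-like cells was 87.3 CPM in an endothelial-like cluster led by PLVAP and KDR, 4.83-fold above the endothelial-like cluster led by ESM1 and SOX18. IGFBP5 reached 284 CPM outside the dermal-like cells, in the mural-like cells, with a median of 21.4 CPM over the 31 clusters. Set against epithelial-like cells, the papilla-like cells of E120 had 3094-fold more FGF7 (interval 2386 to 4086), 1147-fold more IGF1 (interval 739 to 1875) and 55.4-fold more IGFBP5 (interval 52.4 to 58.6).

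Within the E120 epithelium IGFBP5 was uneven. It was 170 CPM in a cluster led by SHH, CCL20 and DCN, 214 CPM in a cluster with SPP1, KRT14 and SOX9 among its leading genes, and 257 CPM in a cluster of 28 cells led by SMOC2 and KRT8. FGF7 in these 3 clusters was 1.6, 0 and 0 CPM, so the papilla-like combination of FGF7 with IGFBP5 was not found in them. SHH is a signal made by hair matrix and placode keratinocytes, and SOX9 marks follicle keratinocytes. In the hair shaft clusters it was 2.7 and 19.5 CPM where KRT35 was a leading gene, 2.9 CPM where KRT84 was and 0.9 CPM where KRT85 was. In the inner root sheath clusters with KRT28, with KRT73 and with KRT27 and KRT71 among their leading genes it was 4.3, 1.0 and 1.7 CPM. A cluster with KRT10, a keratin of differentiating epidermis, among its leading genes had 127 CPM, so keratin-rich clusters were not all low in IGFBP5.

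**Figure D4:**
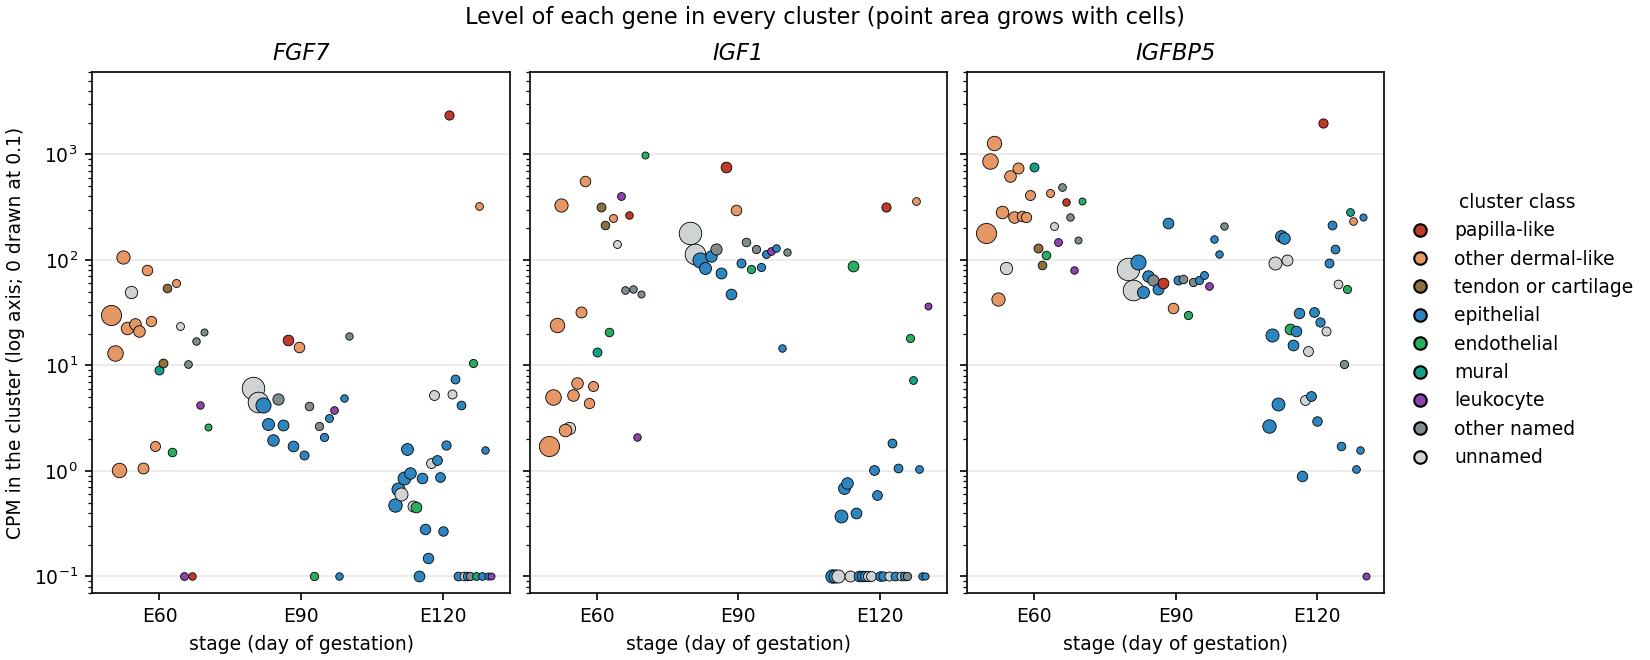
Level of FGF7, IGF1 and IGFBP5 (CPM, log axis, with 0 drawn at the foot) in every cluster of each library, grouped by stage along the horizontal axis, with 1 point per cluster coloured by class and point area growing with its cells. At E120 the papilla-like cluster stands apart for FGF7, at 2364 CPM, whereas IGFBP5 is spread over epithelial-like clusters up to 257 CPM.

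Detection per cell was compared at 2000 UMIs per cell, drawn at random from each cell (thinning), and every cell was deep enough. In the papilla-like cells, with a median depth of 6868, 4813 and 6020 UMIs, FGF7 was detected in 0%, 3.30% and 92.4% of cells at E60, E90 and E120. IGF1 was detected in 29.4%, 74.4% and 48.1% and IGFBP5 in 37.3%, 10.6% and 89.9% of them. Without thinning these shares were 0%, 7.33% and 99.4% for FGF7, 41.2%, 87.9% and 81.0% for IGF1, and 64.7%, 21.6% and 95.6% for IGFBP5. In the epithelial-like cells, taken as cells that should lack FGF7, the thinned share was 0.50% at E90 (median depth 3908 UMIs) and 0.15% at E120 (median depth 15735 UMIs). Their IGF1 share was 16.9% at E90 and 0.06% at E120, and their IGFBP5 share was 14.2% and 8.87%. Epithelial-like cells are no background for IGFBP5, since 1 of their E90 clusters had its highest level of that stage. The E90 intervals for IGFBP5 in papilla-like and epithelial-like cells, 7.23% to 14.9% and 12.8% to 15.6%, overlapped.

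In E120 papilla-like cells FGF7 had a median of 14 UMIs per cell (0 to 84), IGF1 of 2 UMIs (0 to 18) and IGFBP5 of 10 UMIs (0 to 79). After thinning, all 3 genes were found in 67 of the 158 cells (42.4%), 2 of them in 75 cells, 1 in 13 cells and none in 3 cells. Without thinning all 3 were found in 122 cells (77.2%). In the second E120 dermal-like cluster all 3 were found in 2 of 64 cells (3.12%). No papilla-like cell of E60 or E90 held all 3 after thinning, 0 of 51 and 0 of 273, and without thinning 0 and 6 of them did. The E60 count was fixed by the lack of any FGF7 UMI, and at E90 FGF7 was in 3.30% of the thinned cells. Counts of cells with all 3 depend on how often each gene was detected alone. Their difference between stages is therefore no measure of co-expression.

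**Figure D5:**
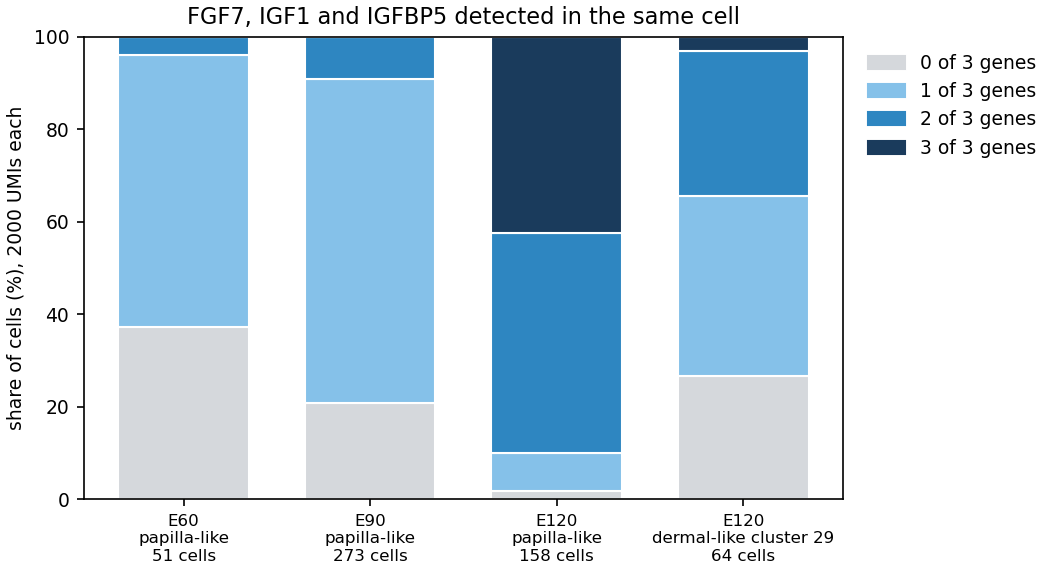
Share of cells in percent (stacked bars) with a UMI of 0, 1, 2 or 3 of the 3 genes, each cell thinned to 2000 UMIs, in the papilla-like cells of E60, E90 and E120 and in the second E120 dermal-like cluster (cluster 29). The segment for all 3 genes is 42.4% in the E120 papilla-like cells, 3.12% in cluster 29 and absent at E60 and E90, where FGF7 was in 0% and 3.30% of cells.

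IGF1 was detected in 73 of the 146 E120 papilla-like cells with an FGF7 UMI, 50.0% (interval 41.6 to 58.4), and in 3 of the 12 cells without, 25% (interval 5.49 to 57.2). These intervals overlap, and so few cells lacked FGF7 that no difference was detectable. IGFBP5 was detected in 133 of 146 cells with FGF7 (91.1%) and in 9 of 12 without (75%). Over the 158 cells Pearson's r was 0.42 between FGF7 and IGFBP5, 0.03 between FGF7 and IGF1 and −0.08 between IGF1 and IGFBP5, as a description of cells of 1 library.

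In the other dermal-like cells of E60, IGF1 was detected in 64 of 306 cells with FGF7 (20.9%) and in 426 of 5211 cells without (8.18%). Within clusters 4, 10 and 17 alone these shares were 43.8% and 50.6%, and within cluster 4 they were 38.1% and 44.3%. The higher share of IGF1 in cells with FGF7 was thus not seen within the clusters where both genes were high. IGFBP5 was detected in 23.9% of the E60 cells with FGF7 and in 45.9% of those without, but in 14.6% and 16.1% within clusters 4, 10 and 17 and in 5.15% and 6.11% within cluster 4.

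Genes with the most similar pattern were sought over the 69 clusters of at least 50 cells in all 3 libraries, among 4447 genes, by Pearson's r of log2(CPM + 1). For FGF7 these were GDF10 (0.77), C1QTNF4 (0.76), MMP23B (0.76), SCRG1 (0.75) and PDGFRL (0.74). For IGF1 they were DPYSL3, CAPN6 and CCDC80 (0.87 each), PTPRG (0.86) and CTSK (0.85). For IGFBP5 they were CCN1 (0.84) and SPR, AKR1B1, PHF1 and RBFOX2 (0.81 each). The 3 genes were less like each other, at 0.44 between FGF7 and IGF1, 0.47 between FGF7 and IGFBP5 and 0.42 between IGF1 and IGFBP5. Within single libraries the r between FGF7 and IGF1 was −0.03 over 21 clusters of E60, 0.71 over 18 of E90 and 0.78 over 30 of E120. Clusters share libraries and differ in depth, so these values rank genes and no more. In the 30 such clusters of E120 alone, the genes closest to FGF7 were SCUBE3 (0.95), APOD, GNAO1 and BMP3 (0.94 each) and SPON1 (0.93).

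The other FGF and IGF genes were taken from 6 lists, of which 41 genes besides the 3 were in the table. In papilla-like cells from E90 to E120, 13 of the 41 were at least 2-fold higher and 5 at least 2-fold lower, against 9.12% higher and 19.2% lower among all 16739 genes, and FGF7 and IGFBP5 were higher and IGF1 lower. The median log2 ratio of the 41 was 0.08, against 0 for all genes. In all dermal-like cells for the same step the counts were 11 and 5, against 8.45% and 15.2% of all genes, from E60 to E90 they were 14 and 3, against 25.1% and 3.53%, and from E60 to E120 they were 17 and 5, against 18.7% and 5.56%. From E60 to E90 in papilla-like cells they were 19 higher and 6 lower, against 34.7% and 5.02%, but 20 of the 41 had a sum of 0 at one of these stages. With sums of 0 set to 3 counts these became 14 and 4, and the median moved from 0.76 to 0. From E60 to E120 there were 19 higher and 5 lower, against 26.9% and 6.87%, and with sums of 0 set to 3 counts 12 and 4. Among genes with at least 10 CPM in either sum the shares differed. From E60 to E90 they were 34.7% higher and 5.87% lower in dermal-like cells, and 41.8% and 4.63% in papilla-like cells. From E90 to E120 they were 11.2% and 18.4%, and 11% and 22.1%. From E60 to E120 they were 25.4% and 8.14%, and 34.3% and 9.14%. The 41 genes were not limited by level. The 14 of 41 higher in dermal-like cells from E60 to E90 were thus not above the 34.7%.

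Among the FGF ligands, FGF10, which acts on the same epithelial receptor form as FGF7, was 2.6, 24.9 and 91.6 CPM in papilla-like cells at E60, E90 and E120. The E60 value was 1 UMI. At E120 FGF10 was 105 CPM in the second dermal-like cluster and 0.145 CPM in epithelial-like cells, so unlike FGF7 it was not higher in the papilla-like cluster. FGF2 was 5.2, 6.9 and 60.8 CPM in papilla-like cells, with the E60 value below the limit of 3 counts (7.86 CPM). FGF9 was also at least 2-fold higher from E90 to E120, and FGF18 at least 2-fold lower. FGF5, which ends hair growth in the follicle cycle, was at 0 in papilla-like cells of all stages and 0.896 CPM in the E120 epithelial-like cells.

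Of the receptors, FGFR2, the receptor of FGF7, was 147 CPM in epithelial-like cells at E90 and 58.8 CPM at E120, and 26.2, 104 and 82.8 CPM in papilla-like cells. The 3′ counts do not separate its splice forms. FGFR1 was 57.6, 515 and 544 CPM in papilla-like cells. FGFRL1 was 39.3, 20.7 and 126 CPM, the 1 receptor at least 2-fold higher there from E90 to E120, and FGFR4 was the 1 lower. In epithelial-like cells all 5 FGF receptors were at least 2-fold lower at E120 than at E90. There 23 of the 41 list genes were lower and 1, FGF2, was higher, against 20% lower and 4.68% higher among all genes, with medians of −1.30 and −0.24. Among genes with at least 10 CPM in either sum, 26.7% were lower and 9.07% higher. Dermal markers summed to 2997 CPM in the epithelial-like cells of E90 and 455 CPM in those of E120. Their part in these counts was not tested. For this step, scaling by median of ratios shifts all values by 0.19 on the log2 scale, and for dermal-like cells from E60 to E90 by −0.15.

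FGF targets and feedback genes are switched on by FGF signalling. ETV5 was 99.5, 6.2 and 31.7 CPM in papilla-like cells, and DUSP6, a phosphatase of ERK, was 110, 31.8 and 34.4 CPM. SPRY2, ETV1 and ETV5 were the 3 of 8 at least 2-fold higher from E90 to E120, and none was lower, against 9.12% and 19.2% of all genes. With median-of-ratios scaling 1 of the 8 was lower. For this step 3 of the 8 had a sum of 0. SPRY2 and ETV1 were low throughout, at most 4.95 and 12.3 CPM in any class described. From E60 to E90 DUSP6, SPRY2, ETV1 and ETV5 were at least 2-fold lower and SPRED1 and SPRED2 higher, against 5.02% and 34.7% of all genes. Of the 8, 4 had a sum of 0 at one of these stages, and with such sums set to 3 counts 3 were lower (DUSP6, ETV1 and ETV5) and 1 was higher (SPRED1).

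On the IGF side, IGF2, the other ligand, was 10.5, 22.8 and 104 CPM in papilla-like cells. IGF1R was 13.1, 11.7 and 9.7 CPM there and 6.6 and 6.4 CPM in the epithelial-like cells of E90 and E120, with no 2-fold difference between stages. IGF2R, which takes up IGF2, was 2.6, 15.2 and 1.8 CPM. Its E60 and E120 values were below the limit of 3 counts, which was 7.86 CPM at E60 and 2.64 CPM at E120. Besides IGF1, IGF2R was the 1 gene of this list at least 2-fold lower from E90 to E120.

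Of the other binding proteins, 4 of 8 were at least 2-fold higher from E90 to E120 in papilla-like cells, namely IGFBP2, IGFBP4, IGFBP6 and IGFALS, against 9.12% of all genes, with a median log2 ratio of 1.13. IGFBP2 was 0, 82.9 and 751 CPM in papilla-like cells and 858 CPM in the second E120 dermal-like cluster. IGFBP6 was 7.9, 48.3 and 121 CPM. IGFBP3, the carrier of most IGF in blood, was 39.3, 124 and 22.0 CPM, and was the 1 lower, while it was 362 CPM in the second E120 dermal-like cluster. Unlike IGFBP5, IGFBP2 and IGFBP3 were thus not higher in the papilla-like than in the other dermal-like cluster of E120.

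PAPPA2, the protease that cleaves IGFBP5, was 13.1, 171 and 542 CPM in papilla-like cells. At E120 it was 22.6 CPM in the second dermal-like cluster and 0.145 CPM in epithelial-like cells, so it shared the E120 papilla-like cluster with IGFBP5. HTRA1, another protease of IGF-binding proteins, was 7.9, 22.1 and 38.8 CPM. ADAMTS1 was 126, 128 and 74.9 CPM. Of the 7 proteases and inhibitors besides, PAPPA2 was the 1 at least 2-fold higher from E90 to E120 and ADAM12 the 1 lower.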

How the data were processed

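Reads were processed with Cell Ranger 3.0.2, per the submitters' processing notes. The genome build is not given in the sources used here, and no coordinates or sequences are printed. The deposited values were natural log values, ln(1 + 10000 × UMI / total) per cell, as the values themselves showed, and UMI counts were recovered from them (100% whole within 0.01). The planned analysis had assumed counts. Gene names are those of the table, and all 3 members and 43 of 44 list genes were found in RefSeq (ARS1.2).

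The members and lists were chosen with earlier results of these data known. Clusters were found within each library (2000 variable genes, 30 principal components, 20 neighbours, Leiden resolution 1; leidenalg 0.10.2, Python 3.11.15) with members and list genes left out. Of 78 clusters, 10 stayed unnamed. Markers were fixed, but their scoring was chosen with the data in view, and a first version was set aside because it called 2 E90 clusters (8 and 10) epithelial. A papilla-like cluster was dermal-like with at least 2 papilla markers among its 10 leading genes, and more than fibroblast markers there. No doublets were removed in the main analysis. The caller marked 291, 1 and 119 cells, so it did not work at E90.

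CPM are UMIs per 1000000 in a sum of cells, with exact Poisson intervals, and shares have Clopper-Pearson intervals, at 95%. Ratios of 2 sums have exact conditional intervals. Sums of 0 were set against 3 counts. The measure between stages was log2 of the ratio of CPM + 1, and differences of at least 2-fold were counted. In data simulated for dermal-like cells from E60 to E120 (16739 genes, 200 changed), 99% of the changed genes were recovered within 0.5 log2. The simulation held counting error only, and a median shift was taken off first. Changed genes were drawn from those of at least 50 CPM at E60. Lower levels, such as the 28.7 CPM of FGF7 in these cells, and the papilla-like sums were thus not covered. Named list genes had at least 50 CPM in 1 class and were at most the 6 with the widest range per list, with FGF5, FGF10, FGFR2, IGF1R, IGF2 and IGFBP3 always named. Genes outside this rule are named where a count of at most 5 genes is given. The alternatives were other Leiden resolutions, joint clustering, list genes allowed in the clustering, classes from each cell's own markers, filters on cells, doublet removal, another pseudocount, the mean over cells, median-of-ratios scaling and other thinning.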

Additional observations from a re-analysis of the deposited data

Results flagged for a closer look

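Several differences between stages ran in opposite directions in 2 cell classes. None was tested, since each stage was 1 library. From E90 to E120 the log2 ratio of CPM + 1 of FGF7 was 6.80 in dermal-like and −1.09 in epithelial-like cells, and that of IGFBP5 was 5.04 and −1.40. The epithelial-like FGF7 levels were 2.76 and 0.76 CPM, in cells taken above as cells that should lack FGF7. Dermal markers summed to 2997 CPM in these cells at E90 and 455 CPM at E120, and their part in this difference was not tested. In the same step IGF1 was −1.27 in papilla-like and 0.30 in the other dermal-like cells. From E60 to E90 FGF7 was 4.19 in papilla-like cells, from 0 UMIs, and −0.92 in the other dermal-like cells. From E60 to E120 IGF1 was 2.38 in dermal-like and −1.32 in endothelial-like cells, and IGFBP5 was 1.78 and −2.35. The endothelial-like IGF1 value depends on which clusters were pooled. At E60 IGF1 was 988 CPM in the lymphatic-like cluster of 23 cells and 20.8 CPM in the other endothelial-like cluster. At E120 the 2 endothelial-like clusters had 87.3 and 18.1 CPM, and neither had lymphatic markers among its leading genes. IGFBP5 was 364 and 112 CPM in the clusters of E60 and 22.0 and 52.7 CPM in those of E120.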

How the results depend on the processing

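Of 201 values recomputed under the alternatives, 142 moved by less than counting error and 59 by more. None of the log2 ratios among them changed sign, and the rest were percentages, which cannot. The cause was not tested. With cells classed by their own marker counts, the log2 ratios from E60 to E90 were 3.38 for IGF1 in dermal-like cells and 0.37, 3.35 and −3.72 for FGF7, IGF1 and IGFBP5 in papilla-like cells. From E90 to E120 they were 4.97, −2.41 and 2.79 for FGF7, IGF1 and IGFBP5 in dermal-like cells and −1.01 for IGF1 in papilla-like cells. The dermal-like shares of FGF7 became 58.4%, 43.0% and 79.6% at E60, E90 and E120, those of IGF1 27.2%, 45.0% and 53.3%, those of IGFBP5 76.2%, 15.9% and 39.3%, and IGFBP5 was in 80.3% of E120 papilla-like cells with FGF7. With the filter on genes and mitochondrial counts, E60 to E90 gave 2.62 and −3.61 for IGF1 and IGFBP5 in dermal-like cells and 1.97 and −3.32 in papilla-like cells. E90 to E120 gave −1.64 and 5.73 in papilla-like cells. The shares became 61.9% and 51.6% for FGF7 at E60 and E90, 55.0% for IGF1 at E90, and 81.4%, 10.2% and 38.8% for IGFBP5. With the libraries clustered together, IGF1 from E60 to E90 in dermal-like cells was 3.74, the E60 shares were 75%, 39.2% and 86.6%, and IGFBP5 was in 82.5% of cells with FGF7. At resolution 2, IGF1 from E90 to E120 in papilla-like cells was −1.45, and the E60 shares were 76.5% for FGF7 and 65.1% for IGF1. At resolution 0.5, IGFBP5 for that step was 4.68, the E60 shares were 92.4% for FGF7 and 90.8% for IGFBP5, and IGFBP5 was in 82.1% of cells with FGF7. With list genes allowed in the clustering, the E60 shares of FGF7 and IGFBP5 were both 87.8%. Without called doublets the E60 shares were 86.4%, 70.7% and 91.1%, and IGF1 from E90 to E120 in dermal-like cells was −0.44. A pseudocount of 10 CPM gave 2.83 for IGF1 from E60 to E90, and from E90 to E120 6.19 and 4.80 for FGF7 and IGFBP5 in dermal-like and 6.44 for FGF7 in papilla-like cells. Median-of-ratios scaling gave 3.15 for IGF1 from E60 to E90 in dermal-like cells. Thinned to 1000 UMIs, IGF1 and IGFBP5 were in 32.0% and 71.9% of cells with FGF7 and IGF1 in 28.3% of those with IGFBP5, and without thinning in 80.9%, 96.2% and 80.8%. No papilla-like cluster was found at E60 at resolution 0.5, or at E60 and E90 with the libraries clustered together, so those values are absent. Among genes with at least 10 CPM, the share of genes at least 2-fold higher in epithelial-like cells from E90 to E120 was 9.07% in place of 4.68%, and that lower in dermal-like cells from E60 to E90 was 5.87% in place of 3.53%. The share higher from E60 to E90 was 34.7% in place of 25.1% in dermal-like cells. In papilla-like cells it was 41.8% in place of 34.7%. Replicates could not be left out, since each stage was 1 library. No paired analysis was possible because each stage had 1 library.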
